A study of Mus musculus with 6 samples.

Results

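A set of 10 core genes of the Notch pathway were followed through a CPEB1 RNA immunoprecipitation of mouse muscle stem cells (satellite cells, SCs): the receptors Notch1, Notch2 and Notch3, the ligands Dll1 and Jag1, the nuclear factor Rbpj, the pathway inhibitor Numb, and the target genes Hes1, Hey1 and Heyl. They were chosen by name for their place in the pathway that holds SCs in quiescence, and make 10 of the 55376 genes in the count tables. The SCs came from C57BL/6 mice aged 3 months and were sorted from hindlimb muscle as CD31-, CD45-, Sca1-, mVcam1+ cells. RNA was sequenced from 2 libraries of the anti-CPEB1 immunoprecipitate (CPEB1 IP), 2 of an anti-IgG control immunoprecipitate (IgG) and 2 of RNA that no antibody had selected (input). No group carried a genetic change or drug. Freshly sorted SCs have spent hours out of the muscle, so they model the first steps out of quiescence rather than quiescence itself.

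Notch signalling works between neighbouring cells. A Delta or Jagged ligand on one cell binds a Notch receptor on another, proteases then release the intracellular part of the receptor, and this fragment joins Rbpj in the nucleus and switches on Hes and Hey genes, whose products are transcriptional repressors. In SCs the pathway is known to keep Pax7 expressed and to hold the cells quiescent, and its activity declines as they activate. CPEB1 binds the cytoplasmic polyadenylation element (CPE), a short U-rich motif in the 3′ UTR of an mRNA, and controls the length of the poly(A) tail and with it translation. The comparisons asked which Notch mRNAs were higher in the CPEB1 IP libraries than in IgG, and how each immunoprecipitate stood against input. Levels are relative to the other RNAs of a library, so they do not give the amount of an mRNA brought down.

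The libraries differed in depth and in how much of it fell on genes. Between 1284716 and 4941653 read counts per library lay on genes, with the IgG libraries the shallowest at 1284716 and 1359052. About 70% of the reads of each CPEB1 IP library lay on genes (69.9% and 69.5%), against 39.5% and 39.1% in IgG and, for input, 71.1% and 79.8%. The 1405 olfactory receptor genes, which SCs are not known to use, gave a pooled level of 0.256 and 0.261 FPKM (fragments per kilobase of gene length, scaled to the mapped reads of the library) in IgG, 0.0808 and 0.0753 in CPEB1 IP, and the input libraries 0.0094 and 0.0104. All 8 SC markers examined, Pax7, Myf5, Vcam1, Calcr, Cdh15, Itga7, Sdc4 and Chrdl2, had a mean input level over 1 FPKM. The study describes its replicates as biological and the experiments as independent, while the labels do not tie a library to an animal, and p-values measure the spread between these libraries.

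All 10 genes carried at least 1 CPE in an annotated 3′ UTR. The 6 stretches shown here are those of the 2 genes that were higher in CPEB1 IP than in IgG (Heyl, Notch3), the 2 whose fitted difference lay below that of the typical gene (Notch2, Jag1), the nuclear factor Rbpj, and Hes1, the target gene with the shortest 3′ UTR. Where a gene had more than 1 CPE, the one shown has the fewest bases to the next AATAAA or ATTAAA downstream. Each runs 5′ to 3′ along the transcript in 30 bases, written as DNA, and capitals mark the CPE. Coordinates are of GRCm38 (mm10), and each stretch lies in the 3′ UTR.
Heyl: cttacgTTTTCATctgtaaaatggctgtga (chr4:123249766-123249795, plus strand)
Notch3: cctcctTTTTAATcttactctcatcccttt (chr17:32121738-32121767, minus strand)
Notch2: aaacatTTTTATcacaaaataaaaaaggtt (chr3:98150323-98150352, plus strand)
Jag1: attcctTTTTATttatatgtatgtgtttag (chr2:137082330-137082359, minus strand)
Rbpj: agctgcTTTTATtaaaagtcctcttttgtg (chr5:53656106-53656135, plus strand)
Hes1: ttctttTTTTATgtgatgccaaagatgttt (chr16:30067694-30067723, plus strand)

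Of the receptors, Notch3 was the most abundant in the input and the one called higher in CPEB1 IP than in IgG. Notch3 (ENSMUSG00000038146.8, chr17:32120820-32166852, minus strand), a receptor of SCs and of the mural cells of blood vessels, stood at 53.3 and 56.8 FPKM in the input libraries, 19.5 and 21.1 in CPEB1 IP and 9.48 and 8.96 in IgG. The 3 groups did not overlap in these levels. Such separation in FPKM was common. Both CPEB1 IP libraries lay below both input libraries for 42.7% of all genes tested, and both IgG libraries for 68.0%. Both CPEB1 IP libraries lay above both IgG libraries for 70.4%. CPEB1 IP exceeded IgG by 0.33 on the log2 scale (SE 0.10, adjusted p = 0.0172, edgeR quasi-likelihood test with Benjamini-Hochberg adjustment). This call was lost without CPEB1 IP replicate 2 or without IgG replicate 2, in tests where 1 group then holds a lone library. The difference itself stayed between 0.33 and 0.41 when any 1 library was left out.

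Notch1 (ENSMUSG00000026923.15, chr2:26457903-26516663, minus strand), the best studied receptor of SC activation and self-renewal, stood at 15.6 and 15.4 FPKM in input, 9.29 and 9.48 in CPEB1 IP and 5.77 and 4.28 in IgG. Notch2 (ENSMUSG00000027878.11, chr3:98013527-98150361, plus strand), a receptor that acts beside Notch1 in quiescence, stood at 10.3 and 13.5 FPKM in input, 6.27 and 7.18 in CPEB1 IP and 4.91 and 4.32 in IgG. For both receptors the groups kept the order input, CPEB1 IP, IgG without overlap in FPKM. After scaling to the typical gene, in contrast, Notch1 in CPEB1 IP differed from IgG by 0.098 (SE 0.12, adjusted p = 0.573) and Notch2 by -0.25 (SE 0.13, adjusted p = 0.137) on the log2 scale (edgeR). The sign for Notch2 depended on the scaling: it was 0.028 with DESeq2 and 0.55 with the library totals behind the deposited FPKM.

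The ligands were, together with Rbpj, the least abundant of the 10 mRNAs in input. Dll1 (ENSMUSG00000014773.13, chr17:15367354-15376872, minus strand), a Delta ligand that differentiating muscle cells present to SCs, rested on few reads: 84 and 59 counts in input, 21 and 70 in CPEB1 IP and 16 and 7 in IgG. These gave 4.33 and 3.37 FPKM in input, 1.36 and 2.33 in CPEB1 IP and 1.17 and 0.477 in IgG. In the IgG libraries Dll1 was 1.83 to 4.57 times the pooled level of the olfactory receptor genes, against 325 to 460 times in input. Its difference between CPEB1 IP and IgG (0.43 on the log2 scale, SE 0.45, edgeR adjusted p = 0.504) could not be resolved at this depth.

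Jag1 (ENSMUSG00000027276.7, chr2:137081456-137116644, minus strand), a Jagged ligand, stood at 6.15 and 8.60 FPKM in input, 4.82 and 6.18 in CPEB1 IP and 3.06 and 4.84 in IgG. It was the 1 gene of the 10 whose CPEB1 IP levels overlapped both those of IgG and those of input. On the log2 scale Jag1 differed by -0.32 (SE 0.20, adjusted p = 0.254) between CPEB1 IP and IgG and by -0.0044 (SE 0.23, adjusted p = 0.992) between IgG and input (edgeR). Without IgG replicate 1 the first difference was -0.56 with an adjusted p of 0.0334, and without IgG replicate 2 it was 0.13.

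Rbpj (ENSMUSG00000039191.12, chr5:53466152-53657362, plus strand), the DNA-binding factor through which all Notch receptors signal, stood at 6.05 and 9.16 FPKM in input, 4.81 and 5.47 in CPEB1 IP and 2.61 and 2.37 in IgG. Numb (ENSMUSG00000021224.15, chr12:83794034-83921934, minus strand), an endocytic adaptor that inhibits Notch and is shared unequally between dividing SC daughters, stood at 13.1 and 12.5 FPKM in input, 10.7 and 9.88 in CPEB1 IP and 3.69 and 5.29 in IgG. Neither gene had overlapping groups. Of the 10 genes, Numb had the highest mean FPKM in CPEB1 IP relative to that in input, at 80.1%. In IgG its mean FPKM was 34.9% of that in input, below the values of Jag1 (53.6%) and Notch2 (38.7%). These are relative levels and not fractions of the mRNA brought down. On the log2 scale CPEB1 IP differed from IgG by 0.25 for Rbpj (SE 0.14, adjusted p = 0.188) and by 0.37 for Numb (SE 0.19, adjusted p = 0.149), and neither passed the threshold (edgeR). Numb passed without IgG replicate 2 (0.73, adjusted p = 0.0268).

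The target genes held the highest level of the 10 and the largest difference between CPEB1 IP and IgG, both in Heyl. Heyl (ENSMUSG00000032744.4, chr4:123233556-123249875, plus strand), a repressor that SCs use together with Hey1 to stay undifferentiated, stood at 113 and 124 FPKM in input, 38.2 and 43.3 in CPEB1 IP and 14.1 and 10.6 in IgG. Every CPEB1 IP library lay above both IgG libraries and below both input libraries. Mean levels were 118 ± 7.52 FPKM in input, 40.7 ± 3.57 in CPEB1 IP and 12.4 ± 2.49 in IgG (SD, n = 2). Heyl was higher in CPEB1 IP than in IgG by 0.92 on the log2 scale (SE 0.12, edgeR adjusted p = 1.18e-05), a difference above that of 97.4% of the genes tested. The difference was between 0.79 and 1.17 when any 1 library was left out, and the adjusted p was at most 0.000953 under every alternative run.

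Hey1 and Hes1 did not pass the test against IgG. Hey1 (ENSMUSG00000040289.8, chr3:8663359-8667256, minus strand), the partner of Heyl in SCs, stood at 16.8 and 19.7 FPKM in input, 5.59 and 6.51 in CPEB1 IP and 2.36 and 3.88 in IgG. Hes1 (ENSMUSG00000022528.8, chr16:30064384-30067796, plus strand), a repressor that oscillates in activated SCs and acts on Myod1, stood at 22.3 FPKM in both input libraries, 13.8 and 13.7 in CPEB1 IP and 6.95 and 5.65 in IgG. The groups of both genes were separate in FPKM. CPEB1 IP differed from IgG by 0.15 for Hey1 (SE 0.27, adjusted p = 0.704) and by 0.32 for Hes1 (SE 0.21, adjusted p = 0.268) on the log2 scale (edgeR), and the value for Hey1 fell to -0.12 without IgG replicate 1.

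**Figure D1:**
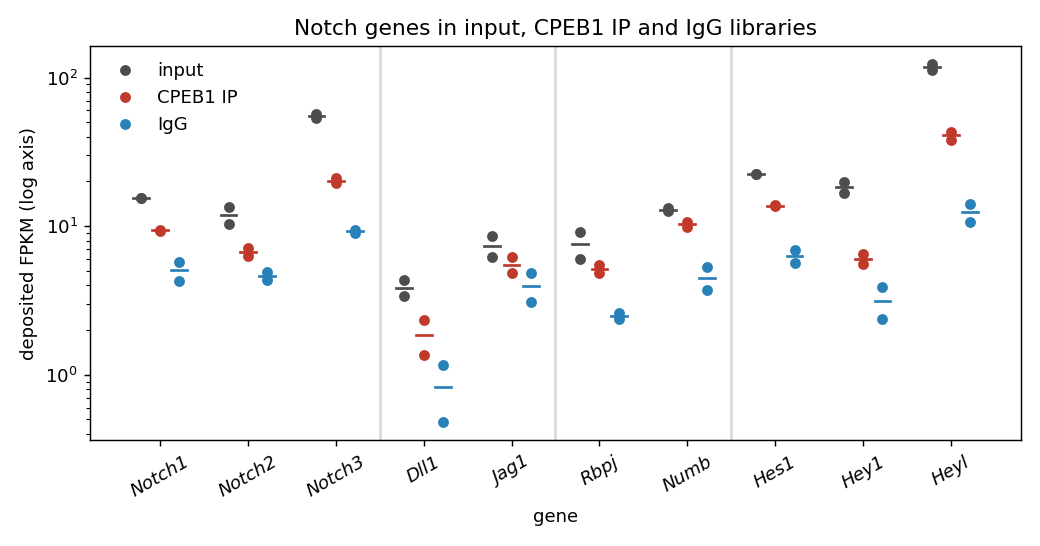
Deposited FPKM of the 10 Notch genes (log axis) in the 2 input, 2 CPEB1 IP and 2 IgG libraries. Each dot is a library and each short line the mean of a group. Grey lines part receptors, ligands, Rbpj with Numb, and target genes. Heyl was highest in each group and Dll1 lowest. For 9 of the 10 genes both CPEB1 IP libraries lay above both IgG libraries, as they did for 70.4% of all genes tested.

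The order of the levels per length changed little from input to CPEB1 IP at the top and bottom and more in the middle. In input the order was Heyl, Notch3, Hes1, Hey1, Notch1, Numb, Notch2, Rbpj, Jag1 and Dll1. The FPKM ranges of Numb and Notch2 overlapped there, as did those of Rbpj and Jag1, and the other neighbours were apart. In CPEB1 IP Hey1 stood in a run of 4 genes with overlapping neighbours (Notch2, Hey1, Jag1 and Rbpj), and Numb stood directly above Notch1. In IgG Heyl and Notch3 were again at the top and Dll1 at the bottom, while the 7 genes between them formed 1 run of overlapping neighbours. Input and CPEB1 IP were deposited in one table and IgG in another, and each FPKM rests on the read total of its own library.

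Between CPEB1 IP and IgG, 2 of the 10 genes (Heyl and Notch3) were higher and 0 lower at an adjusted p under 0.05 (edgeR). The count lower was also 0 at an unadjusted p under 0.05 and with DESeq2. Over all 12124 genes tested, 14.7% were higher and 18.7% lower (edgeR). The median difference of the 10 genes was 0.29 on the log2 scale, against -0.011 for all genes tested. Genes with both CPEB1 IP libraries above both IgG libraries in FPKM made up 9 of the 10, but so did 70.4% of all genes tested. In counts per library total scaled to the typical gene, 5 of the 10 were above (Notch3, Heyl, Hes1, Rbpj and Numb), Notch2 was below and 4 overlapped, where 35.8% of all genes were above and 30.8% below.

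The count of genes called depended on how the libraries were scaled. With the read totals behind the deposited FPKM, which lower each gene in IgG by the smaller share of its reads on genes, 10 of the 10 genes were higher in CPEB1 IP, but so were 7149 of the 12124 genes tested against 937 lower, where the edgeR scaling gave 1779 higher and 2265 lower. That scaling moved the median of these 12124 genes from -0.011 to 0.80 on the log2 scale. Relative to their median in the edgeR test, Heyl lay 0.93 and Notch3 0.35 above, Notch2 and Jag1 lay below and the other 6 above, and a change of scaling leaves such positions nearly as they are, since it shifts these genes together.

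The median difference from IgG was not the same at every input level. Genes whose mean input FPKM was 0.8 to 1.25 times that of Notch3 numbered 357 and had a median difference of 0.38 on the log2 scale, which is above the 0.33 of Notch3 itself. The 160 genes at the level of Heyl had a median of 0.32, against 0.92 for Heyl. At the level of Dll1, the least abundant of the 10, the median of 1413 genes was -0.044. By this description, with no test, 5 of the 10 Notch genes lay above the median of genes of their own input level (Heyl, Hes1, Dll1, Rbpj and Numb) and 5 below (Notch1, Notch2, Notch3, Hey1 and Jag1).

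Against input, the target genes Hey1 and Heyl and the receptor Notch3 fell most in CPEB1 IP, and 4 of the Notch genes did not pass the test. Of the 10 genes, 6 were lower and 0 higher in CPEB1 IP (edgeR, with 0 higher also at an unadjusted p under 0.05 and with DESeq2), against 15.8% lower and 17% higher of the 12171 genes tested. Their median difference was -0.58 on the log2 scale, against -0.0038 for all genes tested. Hey1 fell by 1.38 (SE 0.17, adjusted p = 8.02e-05), Heyl by 1.34 (SE 0.13, adjusted p = 1.20e-05) and Notch3 by 1.25 (SE 0.12, adjusted p = 1.83e-05). Fewer than 5 in 100 of the genes tested had lower values than these 3: 3.49% for Hey1, 3.89% for Heyl and 4.85% for Notch3. In FPKM their mean level in CPEB1 IP was 33.2%, 34.5% and 36.8% of that in input.

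The receptors Notch2 and Notch1 and the target gene Hes1 also fell, by 0.62 (SE 0.14, adjusted p = 0.00558), 0.53 (SE 0.13, adjusted p = 0.00733) and 0.51 (SE 0.17, adjusted p = 0.0336) on the log2 scale (edgeR). The 4 genes that did not pass were Dll1 at -0.82 (SE 0.31, adjusted p = 0.0564), Rbpj at -0.36 (SE 0.17, adjusted p = 0.116), Jag1 at -0.21 (SE 0.19, adjusted p = 0.420) and Numb at -0.14 (SE 0.16, adjusted p = 0.549). Hey1, Heyl and Notch3 passed without any 1 library. In tests without 1 library, 1 group holds a lone library whose spread is assumed to be that of the other group. Leaving out CPEB1 IP replicate 1 took away the calls of Notch1, Notch2 and Hes1, which then stood at -0.53, -0.55 and -0.52 on the log2 scale. Leaving out CPEB1 IP replicate 2 took away those of Notch1 and Hes1, which then stood at -0.56 and -0.51. Dll1 passed without CPEB1 IP replicate 2 (adjusted p = 0.0248) or input replicate 2 (adjusted p = 0.0022), and Rbpj without input replicate 1 (adjusted p = 0.000529). With the replicate number as a block Hes1 was lost (adjusted p = 0.0574), and with DESeq2 as well (adjusted p = 0.130).

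Relative levels below input were also seen in the IgG control, and most of all for Heyl, Notch3 and Hey1. Both comparisons use the same input libraries. Of the 10 genes, 9 were lower in IgG than in input and 0 higher (edgeR, again with 0 higher at an unadjusted p under 0.05 and with DESeq2), and DESeq2 called 6 lower, without Notch2, Dll1 and Numb (adjusted p = 0.0565, 0.142 and 0.143). This stood against 19.4% lower and 21.4% higher of the 12980 genes tested. Heyl fell by 2.38 on the log2 scale (SE 0.15, adjusted p = 1.83e-15), Notch3 by 1.70 (SE 0.15, adjusted p = 6.79e-12) and Hey1 by 1.65 (SE 0.25, adjusted p = 1.56e-06). These 3 calls held without any 1 library. The other 6 ran from a fall of 0.48 in Notch2 to a fall of 1.37 in Dll1, and Jag1 showed no call. The median of the 10 was -0.85, against 0.031 for all genes tested.

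The calls of the smaller falls in IgG were lost when single libraries were left out, in tests where 1 group then holds a lone library assumed to vary like the other group. The falls themselves mostly remained: without IgG replicate 2, Rbpj was at -0.69, Hes1 at -0.84, Notch1 at -0.58 and Notch2 at -0.43 on the log2 scale. Without IgG replicate 2 the calls of Notch1, Notch2, Hes1, Dll1 and Rbpj were lost (adjusted p = 0.0933, 0.257, 0.0530, 0.184 and 0.0631). Without IgG replicate 1 those of Notch2 and Numb were lost (adjusted p = 0.113 and 0.361), without input replicate 1 those of Dll1 and Numb (adjusted p = 0.0702 and 0.115), and without input replicate 2 those of Notch2 and Rbpj (adjusted p = 0.0874 and 0.0567).

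**Figure D2:**
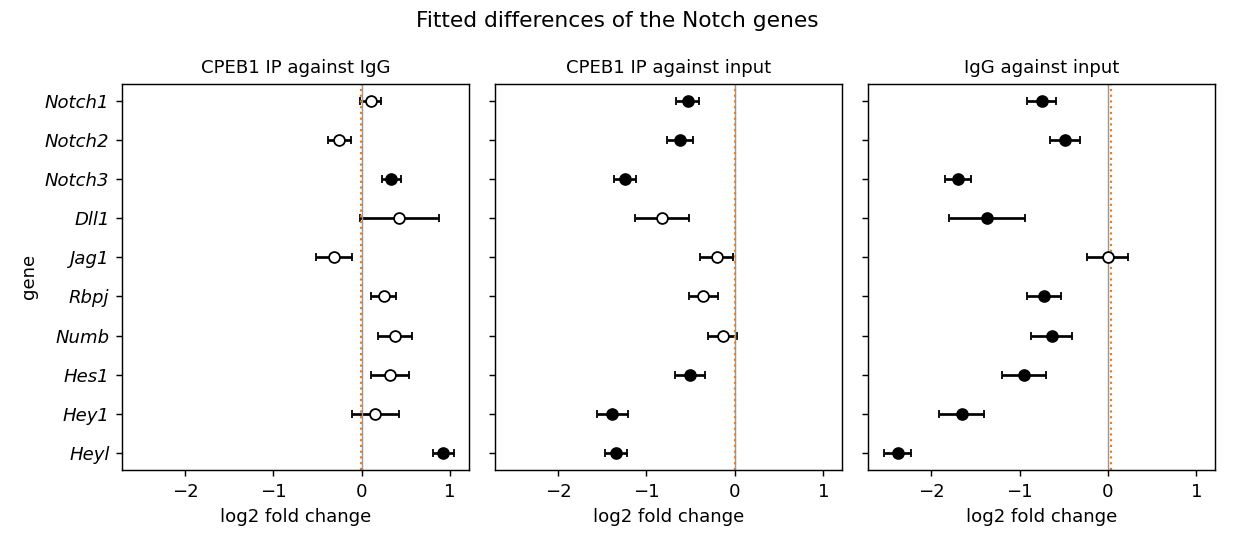
Fitted log2 fold changes of the 10 Notch genes in the 3 comparisons (edgeR, 2 libraries a group), with bars of 1 standard error. Filled dots had an adjusted p under 0.05, and the dotted line is the median of all genes tested. Heyl and Notch3 are filled and to the right of 0 for CPEB1 IP against IgG. Against input every dot lies to the left of 0, except that Jag1 in IgG lies at 0.

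The criterion that the study's methods set for a CPEB1-associated transcript asks that the FPKM in CPEB1 IP be more than 2 times that in IgG in each of the 2 experiments beside the count test. The methods name DESeq2 and no pseudocount. Taken so, 1969 genes (10.2% of those tested) met it, and of the 10 Notch genes Heyl and Notch3 did, as they did with edgeR in place of DESeq2 (1679 genes, 13.8%). The study itself reports fewer associated transcripts than these 1969, and the reason was not tested. The plain ratios were 2.70 and 4.07 for Heyl and 2.06 and 2.35 for Notch3. With 1 added to each FPKM, which draws the ratios of low genes towards 1, and the edgeR test, 1464 genes (12.1%) met the criterion, and of the 10 Heyl alone, with ratios of 2.59 and 3.81. On that scale Notch3 had 1.95 and 2.22, and Numb 2.496 and 1.73. The ratios of Hes1 were 1.86 and 2.22, those of Dll1 1.09 and 2.26 and those of Hey1 1.96 and 1.54. Notch1, Rbpj, Notch2 and Jag1 stayed under 2 in both experiments, from 1.23 to 1.98. The median ratio of the 9541 genes with a mean level over 1 FPKM was itself 1.63 and 1.71 on this scale.

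Notch3 joined Heyl with a pseudocount of 0.1, and also without CPEB1 IP replicate 1 or without IgG replicate 1, where 1 experiment decides the ratio. Numb joined Heyl without IgG replicate 2. With FPKM recomputed on library sizes scaled to the typical gene, the ratios of Heyl were 1.58 and 2.21. On that scale 0 of the 10 genes met the criterion, but only 56 of all genes did.

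Genes of mural cells, the pericytes and smooth muscle cells of vessel walls that also use Notch3 and Heyl, were likewise lower than input in both immunoprecipitates. All 6 mural markers had a mean input level over 1 FPKM and none was at 0: Acta2 was at 146 FPKM and Rgs5 at 47.4, and Pdgfrb at 7.03. The sum of the 6 was 191 to 237 FPKM in input, 92.5 to 99.2 in CPEB1 IP and 37.9 to 40.1 in IgG. A lower FPKM than in input was common, however. Of all genes tested, 42.7% had both CPEB1 IP libraries below both input libraries, and 68.0% had both IgG libraries below them. Their part in the values of Notch3 and Heyl was not tested. Of the 8 SC markers, 6 had a lower mean in CPEB1 IP than in input, among them Pax7 (42.9 FPKM in input, 10.4 in CPEB1 IP and 5.93 in IgG), Calcr (96.5, 28.4 and 12.6) and Cdh15 (146, 27.5 and 9.44). The other 2 were higher, Chrdl2 at 76.2 in input and 115.8 in CPEB1 IP and Sdc4 at 1606 and 1641. The sum of all 8, most of it Sdc4, was 2129 to 2606 in input, 1930 to 2332 in CPEB1 IP and 1083 to 1103 in IgG. For the input levels, which come from sorted cells in bulk, the number of cells of a type and the RNA per cell cannot be told apart.

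Markers of endothelial cells, which also carry Notch receptors and ligands, summed lowest in input, and Cldn5 carried most of that difference. The sum of 6 was 21.8 to 23.4 FPKM in input and 100.1 to 114.8 in CPEB1 IP, with IgG between at 42.2 to 47.0, and with Cldn5 at 6.36 in input, 86.7 in CPEB1 IP and 34.7 in IgG. Without Cldn5 the sum was 15.3 to 17.2 in input, 20.2 to 21.2 in CPEB1 IP and 8.92 to 11.0 in IgG. Of the 6 markers, 5 had a higher mean in CPEB1 IP than in input, among them Pecam1 (1.73 in input and 4.58 in CPEB1 IP). In IgG, 5 were also above input. The exception in both was Tek, at 12.9 in input and 10.4 in CPEB1 IP, which made up most of the sum without Cldn5 in input. The sums of fibro-adipogenic markers (35.0 to 39.7 in input against 70.4 to 74.4 in CPEB1 IP), hematopoietic (12.4 to 18.4 against 27.6 to 33.1), glial (9.85 to 13.1 against 21.6 to 26.7) and myofiber markers (24.6 to 26.6 against 44.4 to 57.4) were also higher in CPEB1 IP. The hematopoietic rise was that of Lyz2, without which the sum was 6.56 to 13.3 in input and 5.01 to 8.44 in CPEB1 IP. In IgG these 4 sums were 30.3 to 37.6, 14.9 to 17.9, 10.8 to 14.3 and 22.2 to 25.8 in the same order. No marker of any list was at 0 in both input libraries, though the hematopoietic Ptprc stood at 0.00658 FPKM there. Their part in the Notch values was not tested.

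Of 54 further Notch pathway genes, 45 were abundant enough to test between CPEB1 IP and IgG, and 3 were higher and 3 lower, with a median of -0.056 on the log2 scale, where 14.7% of all genes tested were higher and 18.7% lower. The higher ones included Hdac1, a histone deacetylase of the corepressor complexes that Rbpj recruits without Notch (0.74, SE 0.15, adjusted p = 0.000808) and Snw1, a coactivator that bridges Rbpj and the Notch fragment (0.70, SE 0.13, adjusted p = 0.000447). Snw1 stood at a mean of 14.4 FPKM in CPEB1 IP, 5.07 in IgG and 9.80 in input. Of the lower ones, Dtx2, a Deltex ubiquitin ligase, differed by -0.64 (SE 0.23, edgeR adjusted p = 0.0353). The other 2, named after their values were seen, were the ligand Jag2 (-1.19) and the endothelial receptor Notch4 (-2.35), both under 1 FPKM in each group. In IgG their means were 0.703 and 0.513 FPKM, beside 0.256 and 0.261 for the pooled olfactory receptor genes. With DESeq2 the counts were 8 higher and 1 lower, and with the FPKM read totals 30 and 1. Over all genes DESeq2 gave 2619 higher and 984 lower of 19222 tested, and the FPKM read totals 7149 and 937 of 12124.

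Against input, 8 of 44 were higher in CPEB1 IP and 7 lower, with a median of -0.088 on the log2 scale. Over all genes tested 17% were higher and 15.8% lower, so the shares in the list were near those of all genes. The corepressors held 4 of the higher genes and 0 of the lower among 10 tested, with Tle1 (1.47, SE 0.25, adjusted p = 0.000852) and Tle4 (1.27, SE 0.16, adjusted p = 8.02e-05), Groucho-type corepressors that Hes and Hey proteins recruit, at the top. Fbxw7, the ubiquitin ligase subunit that marks the Notch fragment for degradation, was higher by 0.82 (SE 0.28, edgeR adjusted p = 0.0405). The cleavage machinery held 3 of the lower genes among 9 tested, led by Aph1b, a subunit of the gamma-secretase (-1.88, SE 0.44, adjusted p = 0.0057), whose reads may be shared with its near-identical mouse copy Aph1c. Dtx4, a Deltex ligase that acts on Notch trafficking, was at -1.56 (SE 0.15, adjusted p = 1.21e-05), and Pofut1, which adds the O-fucose that receptors need, was at -1.03 (SE 0.28, adjusted p = 0.0126). The count of higher genes was 4 with DESeq2 and 3 when either one of the CPEB1 IP libraries was left out.

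In the IgG control, again against the same input libraries, 5 of 45 were higher and 10 lower, with a median of 0.0010. Over all genes tested the shares were 21.4% and 19.4%. Among those with a mean level over 1 FPKM, the higher genes were led by Tle1 (1.46, SE 0.35, adjusted p = 0.000974), Fbxw7 (1.0, SE 0.37, adjusted p = 0.0261) and Tle4 (0.89, SE 0.22, adjusted p = 0.00108) by edgeR. Notch4, under that level, was at a higher value of 2.13 (SE 0.60, edgeR adjusted p = 0.00401). Its mean was 0.513 FPKM in IgG, where the olfactory receptor genes pooled to 0.256 and 0.261. In input it was 0.207, where they pooled to 0.0094 and 0.0104. Aph1b (-1.88, SE 0.46, adjusted p = 0.000975), Dtx4 (-1.83, SE 0.18, adjusted p = 2.86e-10) and Adam10, the protease that makes the first activating cut in the receptor (-1.28, SE 0.26, adjusted p = 0.000129), led the lower ones. In this comparison 5 of the 9 cleavage genes were lower, and the corepressors held 3 higher (Tle1, Tle4 and Ncor1) and 2 lower (Hdac1 and Tle3). The ligands Dll3 and Dner, the fringe enzymes Lfng and Mfng, Dtx1, and the targets Hes5, Hes7, Hey2 and Nrarp had too few reads to be tested in any comparison.

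**Figure D3:**
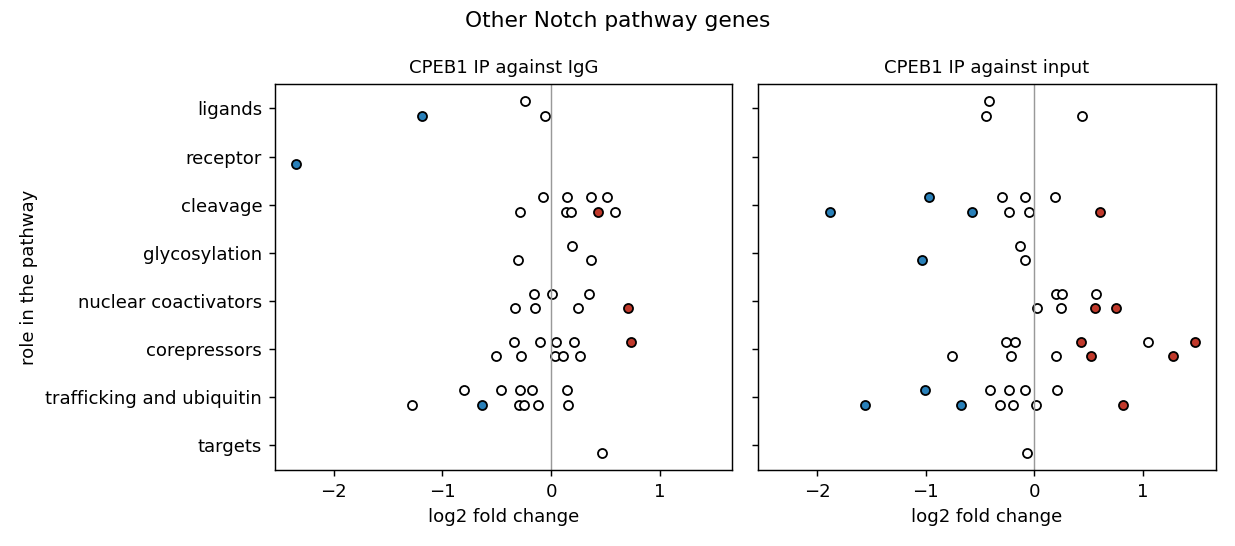
Log2 fold changes of the further Notch pathway genes tested, by role, for CPEB1 IP against IgG (45 genes) and CPEB1 IP against input (44 genes). Each dot is a gene, red where higher and blue where lower at an adjusted p under 0.05 (edgeR), white otherwise, and dots are shifted up or down only to be seen apart. Against input 4 of the 10 corepressors are red and none is blue.

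The CPE was searched as the 9 forms TTTTAT or TTTTAAT or TTTTACT or TTTTCAT or TTTTAAAT or TTTTAAGT or TTTTAACT or TTTTAATT or TTTTAAAGT on the sense strand of annotated 3′ UTRs, with TTTTAATT and the TTTTAAT inside it counted once. All 10 Notch genes held at least 1, as did 73.6% of the 11845 tested genes with a 3′ UTR and 65.7% of all 21037 genes with one. All 10 also held TTTTAT or TTTTAAT, the canonical forms, against 65.8% of tested genes. A match is a description of the sequence and not evidence of binding.

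The genes with the most CPEs were not those higher in CPEB1 IP than in IgG. Notch2, at -0.25 on the log2 scale, had the most, 11 in 2917 bases of 3′ UTR, where genes with a 3′ UTR of 0.8 to 1.25 times that length had a median of 5. Notch3, called higher, had 1 in 1000 bases, and Heyl, the gene with the largest difference, had 3 in 3245 bases against a median of 6 at that length. Hes1 packed 4 into 368 bases, where the median gene of that length had 0 and 44.9% had any. That share was 61.3% at the length of Dll1, and for the rest it ran from 74.2% (Notch3) to 97.5% (Rbpj). Rbpj had 7 in 3742 bases, Jag1 5 in 1568, Notch1 4 in 1628, Numb 4 in 1405, Hey1 3 in 1137 and Dll1 3 in 676. Across the 10 genes Spearman's rho between the number of sites and the log2 difference was -0.64 and Pearson's r was -0.57, and per kilobase rho was -0.24 and r was -0.12. These are descriptions across genes measured in the same libraries.

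Cytoplasmic polyadenylation also needs the hexamer AATAAA or ATTAAA downstream. The CPEs shown above were picked as the nearest to a downstream hexamer in their gene, so their closeness follows from that choice. In the Notch2 stretch shown above the hexamer begins 5 bases after the CPE, and in that of Rbpj it overlaps the last 2 bases of the CPE. For the other CPEs the next hexamer lay 54 to 2603 bases downstream in Notch2 and 13 to 816 in Rbpj. In Heyl the hexamer follows 67 bases after the CPE shown and in Hes1 69 bases after, beyond the stretches printed. The nearest hexamer lay 911 bases downstream of the CPE in Notch3 and 843 in Jag1. A hexamer within 100 bases downstream was found for 3 CPEs each in Notch1 and Notch2, 2 each in Rbpj and Numb, 1 each in Hes1, Heyl and Dll1, and 0 in Notch3, Hey1 and Jag1.

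**Figure D4:**
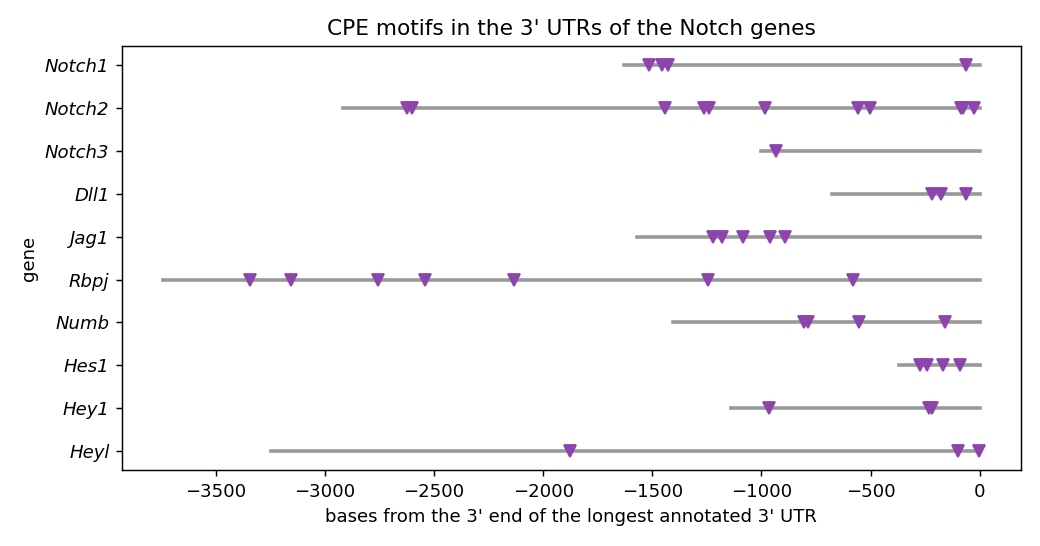
CPE motifs (triangles) along the longest annotated 3′ UTR (grey line) of each of the 10 Notch genes, in bases from its 3′ end at 0. Notch2 holds 11 and Notch3 holds 1, near the start of its 3′ UTR.

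Annotations that overlap the 10 genes held few reads. Hes1, Hey1, Heyl and Jag1 overlap no other annotated gene. The genes that overlap the other 6 had at most 43 counts in any library (Gm42820 in Notch2), and the antisense gene Gm17276 in Notch3 had 3 to 14. The pseudogene Rbpj-ps3, a copy of Rbpj, had 1 to 9 counts. The strand setting of the counting is not given in the sources used here, so reads of a gene and of an antisense partner cannot be told apart.

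The genes nearest in pattern to a receptor, the nuclear factor and a target were found by the root mean square difference of centred log2 counts, scaled per library, over the 6 libraries, among 11959 genes with a mean level over 1 FPKM. For Notch1 they were Rabgef1 (0.0441), Slc9a9 (0.0475) and Ints5 (0.0498). For Rbpj they were Stt3a (0.0539), Plpp1 (0.0586) and Fem1c (0.0674), and for Hes1 Arid1a (0.0415), Bach1 (0.0464) and Hivep1 (0.0607). None of the 9 belongs to the Notch list.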

How the data were processed

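RNA of sorted SCs was immunoprecipitated, made into cDNA libraries with SMART-seq2 and sequenced as pairs. The authors aligned reads to mm10 (HISAT), assigned them to genes (featureCounts) and deposited raw counts for the 6 libraries. The FPKM deposited by the authors divide each count by gene length and by a read total larger than the counts on genes. The annotation release, strand setting and treatment of multi-mapping reads are not given in the sources used here.

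Counts were tested with edgeR 4.0.16 (R 4.3.3): TMM scaling, filterByExpr, glmQLFit and glmQLFTest, 2 groups at a time, Benjamini-Hochberg adjustment over all genes tested and a threshold of 0.05. The tests were also run on simulated counts. Apart from genes changed by a known fold, both groups there had the same composition. That run cannot show how the tests behave where libraries differ in composition, as they do here. FPKM ratios used a pseudocount of 1, which the methods do not state, and none in an alternative chosen after seeing the data. Per the labels, libraries fall into 3 groups of 2. Replicate numbers are shared between groups, and the methods pair CPEB1 IP and IgG by experiment. Deviations of same-numbered libraries correlated at -0.018 to 0.025 over 19317 genes, which cannot tell whether they share cells. The block was run as an alternative. The others were DESeq2 1.42.0, edgeR with RLE size factors in place of TMM, FPKM library totals, no filter, all 6 libraries in 1 fit, and leaving out each library. DESeq2 was run without filterByExpr and with its own size factors, so it differs from the main test in filter and scaling as well.

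Named were the 10 genes, and of the 54 pathway genes the 3 largest log2 differences per direction with a mean over 1 FPKM. The values of 1 pathway gene are not reported here. The 10 genes and all lists were chosen with earlier results of these data known. The 3′ UTRs are those of GENCODE M21 protein-coding transcripts. Likeness used a prior count of 2. SMART-seq2 reads carry no molecular identifiers, so read counts are not counts of molecules.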

Additional observations from a re-analysis of the deposited data

How the results depend on the processing

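Depth limits Dll1 first, with 7 and 16 counts in IgG. Of the 10 Notch genes, 2 were higher in CPEB1 IP than in IgG, against 5 with DESeq2, 10 with the FPKM library totals and 6 without the filter on low counts. For these 3 settings in turn, pathway genes higher over IgG numbered 8, 30 and 14 (3 as reported), higher over input 4, 3 and 4 (8 as reported), and higher in IgG than in input 0, 1 and 3 (5 as reported). Pathway genes lower than IgG numbered 1 with DESeq2 and 1 with FPKM totals (3 as reported), and lower in IgG than in input 30 with FPKM totals (10 as reported). The cause was not tested. Over the 12124 genes of the reported test, the median for CPEB1 IP against IgG was 0.27 with DESeq2, 0.80 with FPKM totals and 0.39 without the filter, and over the 19222 and 42045 genes that DESeq2 and the unfiltered test took in, it was -1.07 and -0.90.

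Over all genes, higher over IgG numbered 2619 of 19222 with DESeq2, 7149 of 12124 with FPKM totals and 3513 of 42045 without the filter (1779 as reported). Those lower than IgG numbered 984 with DESeq2 and 937 with FPKM totals (2265). Against input, CPEB1 IP gave 1222 higher with DESeq2 and 1235 with FPKM totals (2069), and 1181 lower with DESeq2 (1921). IgG gave 1004 higher with DESeq2 and 1108 with FPKM totals (2772), and 1530 and 7180 lower (2515). The criterion for CPEB1-associated transcripts took 2 of the 10 with a pseudocount of 0.1 (1667 of all genes) and 2 without a pseudocount (1679). It took 2 without a pseudocount and with DESeq2 (1969), and 0 with TMM library sizes (56).

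The sign turned for Notch2 against IgG (0.028 with DESeq2, 0.55 with FPKM totals, 0.15 without the filter), for Jag1 against IgG (0.49 with FPKM totals, 0.086 without the filter) and for Jag1 between IgG and input (0.020 with RLE size factors). Leaving out 1 library at a time, Notch1 against IgG ran from -0.039 to 0.36, Hey1 from -0.12 to 0.63, Dll1 from -0.015 to 1.23, Jag1 from -0.56 to 0.13, and Jag1 between IgG and input from -0.42 to 0.28. The same left 1 to 2 of the 10 genes higher and 0 to 1 lower against IgG, 3 to 7 lower in CPEB1 IP than in input, 4 to 7 lower in IgG than in input, and 1 to 2 CPEB1-associated. Pathway genes then numbered 2 to 5 higher and 0 to 3 lower against IgG, 3 to 12 and 4 to 9 in CPEB1 IP against input, and 2 to 6 and 6 to 10 in IgG against input. All genes then ran from 1054 to 1783 higher and 677 to 1750 lower against IgG, 957 to 2646 and 1064 to 2347 in CPEB1 IP against input, and 1354 to 2170 and 1709 to 2400 in IgG against input.

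With the replicate block, 2 of the 10 genes were higher than IgG, 5 lower in CPEB1 IP than in input (Hes1 lost) and 9 lower in IgG than in input, and no other call of the 10 changed. The lowest correlation of same-numbered libraries was -0.018 and none was over 0.1. That check took in genes with few reads in IgG, so it cannot tell whether same-numbered libraries share cells or only a number.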
